A study of Mus musculus with 4 samples.

Results

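The lipoxygenases of the skin are described here in inflamed mouse ears with and without the NF-kB subunit RelA in the epidermis. All probes named for 8 genes were taken by gene name (Alox5, Alox5ap, Alox8, Alox12, Alox12b, Alox12e, Alox15 and Aloxe3). They came to 10 probes of 55681 on the array, and all 8 genes were among the 23624 genes tested. Each ear was taken 48 h after it had been treated with DNFB (2,4-dinitrofluorobenzene), a contact sensitiser that inflames skin. The 2 mutant mice, labelled RelAE-MUT with genotype K14Cre RelAfl/fl, carried the floxed RelA allele together with a Cre recombinase under the keratin 14 promoter, which is active in basal keratinocytes. The 2 wild-type mice carried the floxed allele alone (RelAfl/fl). Both groups therefore share the floxed allele and the DNFB treatment, and no untreated ear was analysed. The recombinase was present only in the mutants, so its own effect and that of the deletion cannot be told apart. Whole ears also hold dermis, cartilage and infiltrating blood cells, in which the keratin 14 promoter is not active.

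Lipoxygenases add molecular oxygen to polyunsaturated fatty acids at fixed positions. In the epidermis, the products of Alox12b and Aloxe3 act one after the other on linoleate bound in ceramides, a step needed for the lipid envelope of the cornified cells. Loss of either enzyme causes ichthyosis. In leukocytes, Alox5 works with its activating protein, the product of Alox5ap, to make leukotrienes from arachidonate, while Alox15 and Alox12 make hydroxylated fatty acids. Alox8 and Alox12e are lipoxygenases of mouse epidermis.

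Of the 8 genes, 6 lie on chromosome 11 in 2 clusters. By the probe positions in mouse build mm9, Aloxe3, Alox12b and Alox8 lie within 34.9 kb, and Alox12, Alox12e and Alox15 within 104 kb, 1.06 Mb further along the chromosome. Alox5 is on chromosome 6 and Alox5ap on chromosome 5. The probes are 60 bases long. For 2 of them the interval on the genome is longer than the probe, 235 bases at chr11:68979536-68979770 (plus strand) for the dimmer probe of Alox12b and 225 bases at chr11:70159115-70159339 (minus strand) for Alox15. These probes cross an exon junction and are shown because they read spliced transcript.
Alox12b probe: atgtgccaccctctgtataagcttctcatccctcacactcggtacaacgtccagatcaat
Alox15 probe: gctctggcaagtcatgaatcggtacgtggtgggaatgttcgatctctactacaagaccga
RefSeq promoter sequence (GRCm38.p6) was at hand for 5 of the 8 genes. The 250 bases before the start are shown for Alox8, the member with no signal well above background in wild-type ears, and for Alox12b and Alox12, both lower in the mutants at their brighter probes. Capitals mark the GC box (GGGCGG, either strand). The NF-kB consensus and the AP-1 site (TGANTCA) were searched on both strands as well.
Alox8, chr11:69197844-69198093, minus strand: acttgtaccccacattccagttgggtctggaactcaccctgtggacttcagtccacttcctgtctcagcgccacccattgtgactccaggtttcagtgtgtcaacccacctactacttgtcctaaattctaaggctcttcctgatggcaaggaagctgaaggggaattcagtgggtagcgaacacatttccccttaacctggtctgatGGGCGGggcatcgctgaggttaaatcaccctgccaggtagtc
Alox12b, chr11:69156822-69157071, plus strand: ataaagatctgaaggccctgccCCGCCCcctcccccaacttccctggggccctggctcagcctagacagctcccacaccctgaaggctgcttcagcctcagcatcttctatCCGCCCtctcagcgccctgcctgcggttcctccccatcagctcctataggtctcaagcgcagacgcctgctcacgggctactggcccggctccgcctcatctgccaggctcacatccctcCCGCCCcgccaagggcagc
Alox12, chr11:70255371-70255620, minus strand: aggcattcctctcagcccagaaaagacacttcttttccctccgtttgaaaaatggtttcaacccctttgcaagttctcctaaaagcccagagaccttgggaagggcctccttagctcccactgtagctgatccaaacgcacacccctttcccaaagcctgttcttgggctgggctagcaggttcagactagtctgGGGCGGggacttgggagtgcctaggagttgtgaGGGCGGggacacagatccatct
A GC box was found in 5 of the 5 promoters, against 32.7% of 32817 promoters of the same length. The NF-kB consensus was in 0 of the 5 and in 3.90% of all promoters, and the AP-1 site in 0 of the 5 and in 6.75%. A missing match says only that these letters are not in this window.

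The 4 one-colour arrays, 1 per mouse, shared 1 slide. The values below are levels, that is log2 intensities relative to the 75th percentile of the array, which lay between 589 and 664 in intensity. Between 61.2% and 64.3% of spots were well above background, with 0 saturated. Over the genes of an array, which are not replicates, the array of mutant mouse 2 correlated with the others at Pearson's r between 0.9827 and 0.9878, and the others among themselves between 0.9925 and 0.9931. That array has a damaged corner. It holds the dimmer Alox12b probe and no other probe of the 8 genes. The keratinocyte markers Krt5, Krt14 and Lor were well above background on all 4 arrays. Rela stood at 4.59 and 4.72 in the mutants and at 4.48 and 4.60 in wild type. Its spot lies in the damaged corner, and the deleted exons are not given in the sources used here, so that it does not check the labels.

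The 8 genes were chosen by name, but with their intensities in this same comparison of mutant and wild type known, so their differences are a description and carry no test. The limma fit over all genes called 0 of the 8 at an adjusted p under 0.05, where it called 4 of 23624 genes (0.0169%), 2 of them higher (0.00847%) and 2 lower (0.00847%). Of these 4, only 2610507I01Rik (lower) was well above background in both groups. The 2 higher ones were not in wild type, and Snhg12 (lower) was not in the mutants, so those calls rest on values of dim spots. Over all genes the count was 81 without mutant mouse 1, 1 without mutant mouse 2 and 0 without either wild-type mouse. At an unadjusted p under 0.05 the counts were 1 of 8 and 6.51% of all genes. The 1 gene is Alox8, which entered the fit through the mutants alone and whose wild-type values are surrogates for a dim spot, so that nothing is read from it. The groups did not overlap for 6 of the 8 (36.3% of all genes). Both mutants were higher for 2 (18.9% of all genes) and lower for 4 (17.4%). The 2 higher include Alox8, whose place above wild type comes with the filter and the surrogates, so it adds nothing to the count. The median log2 difference of the 8, with Alox8 at its surrogate values, was -0.15, and 0.01 over all genes. With 2 mice per group an exact permutation test (two-sided) cannot give a p below 0.333.

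**Figure D1:**
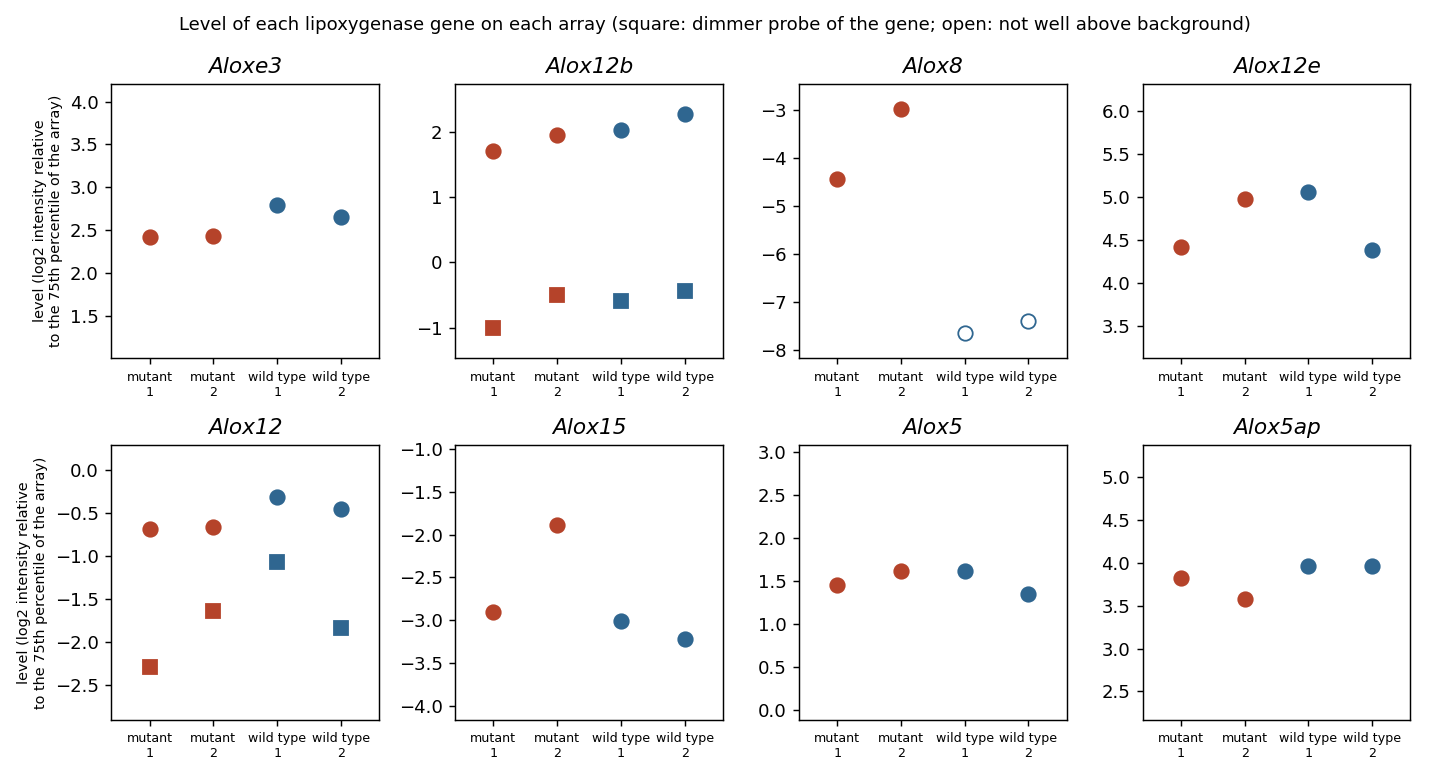
Level of each lipoxygenase gene in mutant (red) and wild-type (blue) ears, as log2 intensity relative to the 75th percentile of the array, with 1 point per array and, for Alox12b and Alox12, squares for the dimmer probe. Open points are not well above background: the wild-type values of Alox8 near -7.5 are the only ones, while the mutant values of Aloxe3 and Alox5ap lie slightly under both wild-type values.

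The barrier pair Aloxe3 and Alox12b stood lower in the mutants by a small margin. Aloxe3 encodes an epoxyalcohol synthase that acts on the hydroperoxide made by the Alox12b product. At its probe (chr11:68962557-68962616, plus strand) it had intensities of 3321 and 3177 in the mutants and of 4606 and 3915 in wild type, or levels of 2.42 and 2.43 against 2.80 and 2.65. The groups did not overlap, and the 2 mutants were almost equal, at 2.43 ± 0.01 (SD, n = 2), with the wild-type mice at 2.72 ± 0.10 (SD, n = 2). The mutants stood 1.23-fold lower, with a log2 difference (mutant minus wild type) of -0.30 ± 0.11 (SE, 2 mice in each group). This SE, like all those of log2 differences here, is moderated by limma, which draws the variance of a gene toward that of all genes.

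Alox12b, the lipoxygenase that oxidises the linoleate of ceramides, had levels of 1.71 and 1.95 in the mutants and of 2.03 and 2.27 in wild type at its brighter probe (chr11:68983186-68983245, plus strand). The highest mutant value was just under the lowest wild-type value, and the log2 difference was -0.32 ± 0.15 (SE). At the junction probe shown above the levels were -1.01 and -0.50 in the mutants and -0.59 and -0.44 in wild type. Here the groups overlapped, and the log2 difference was -0.24 ± 0.21 (SE). Mutant mouse 1 was the lowest of the 4 at both probes. On the array of mutant mouse 2 the junction probe is in the damaged corner.

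Markers of the upper epidermis, where both genes are known to act, did not shift one way. Of 9 suprabasal markers tested, 4 were above 0 and 5 below, with a median log2 difference of -0.13 and 0 past the threshold. Their summed level, in units of the 75th percentile, was 896 and 990 in the mutants and 960 and 970 in wild type. Such a sum is weighted to the brightest genes of a list. The keratin gene Krt1 had a log2 difference of 0.39 ± 0.21 (SE), Flg 0.50 ± 0.29 and Flg2 -0.75 ± 0.22, both of the filaggrin kind. The part of the epidermal makeup in the lower Aloxe3 and Alox12b values was not tested. In RNA from whole ears, fewer cells of a type and less RNA per cell cannot be told apart.

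**Figure D2:**
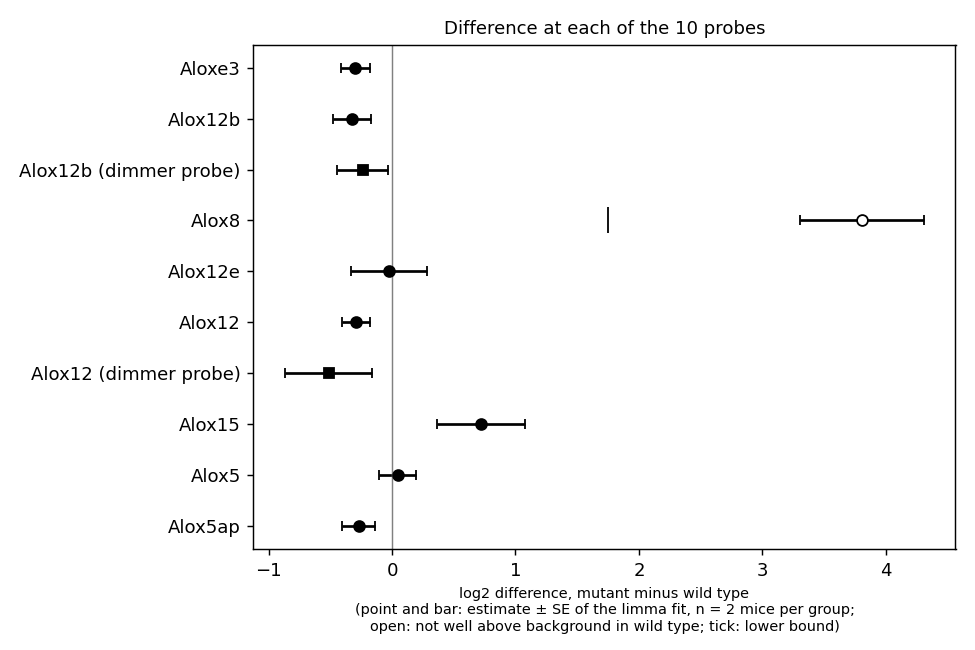
Log2 difference, mutant minus wild type, at each of the 10 probes, with the standard error of the limma fit over all probes (n = 2 mice per group). For Alox8 the tick at 1.75 is the lower bound (not a strict one) on the log2 scale. The dimmer probes of Alox12b and Alox12 fall on the same side of 0 as the brighter ones, with wider bars.

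Alox8 gave the widest gap between the groups. It encodes an arachidonate lipoxygenase that in mouse skin is induced by phorbol ester. Its only probe (chr11:68997387-68997446, minus strand) had processed intensities of 28.6 and 74.6 in the mutants and of 3.33 and 3.71 in wild type. The wild-type values are surrogates that the scanner software set for a spot not well above background, and the mutant values are dim too. The levels were -4.44 and -2.98 in the mutants against -7.64 and -7.39 in wild type, so mutant mouse 2 was 2.74-fold brighter than mutant mouse 1.

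Set against the dimmest probe well above background on each wild-type array, Alox8 was 3.37-fold higher in the mutants. This is called a lower bound here. It is not a strict one, as spots not well above background can be brighter than that probe. This bound was 2.04-fold without mutant mouse 2, 5.58-fold without mutant mouse 1, and 3.02-fold and 3.76-fold without wild-type mouse 1 and 2. The log2 difference of 3.81 ± 0.50 (SE) rests on the surrogates and is no measure of the size. The raw signals before any correction were 51.1 and 90.8 in the mutants and 26.7 and 19.7 in wild type, above local backgrounds of 14 and 12 in the mutants and of 14 and 17 in wild type. With normexp background correction, which here adds an offset of 50 to each signal and so brings dim values closer together, the log2 difference was 0.92 ± 0.20 (SE). The bound, 1.75 on the log2 scale, applies to the processed intensities only. Of all genes tested, 0.317% had the same pattern of spots above background in both mutants and in 0 wild-type mice.

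Markers of stressed keratinocytes stood higher in the mutants, a direction they share with Alox8. Of 10 tested 10 were above 0 and 9 did not overlap between the groups (18.9% of all genes were higher without overlap). Their summed level was 1597 and 1550 in the mutants and 742 and 1137 in wild type. In this list 0 genes passed the threshold over all genes and 6 had an unadjusted p under 0.05 (6.51% of all genes). The list, like the other lists here, was chosen with earlier results of these data known, so its counts are a description and no test. S100a8 and S100a9, calgranulins that neutrophils also make, had log2 differences of 1.71 ± 0.18 and 1.30 ± 0.14 (SE). The keratin genes Krt6a, Krt6b and Krt16 had 0.67 ± 0.30, 0.56 ± 0.25 and 0.64 ± 0.27. The 2 mutants were alike in the summed level of this list, whereas Alox8 differed between them. The part of this list in the Alox8 values was not tested.

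Alox12e, the other lipoxygenase of mouse epidermis, differed more between mice of one group than between the groups. At its probe (chr11:70129157-70129216, minus strand) it had intensities of 13302 and 18505 in the mutants and of 22211 and 12995 in wild type, or levels of 4.42 and 4.97 against 5.06 and 4.38. The groups overlapped fully, with a log2 difference of -0.02 ± 0.31 (SE). The mice of a group were 0.55 apart in the mutants and 0.68 apart in wild type on the log2 scale, where the median gap over all genes was 0.14 in the mutants and 0.15 in wild type. Without wild-type mouse 1 the difference was 0.32 and without wild-type mouse 2 -0.37, so its sign changed with the mouse left out.

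Alox12, known as the platelet-type lipoxygenase and also made in epidermis, had levels of -0.69 and -0.67 in the mutants and of -0.32 and -0.46 in wild type at its brighter probe (chr11:70055715-70055774, minus strand). The groups did not overlap, and the log2 difference was -0.29 ± 0.11 (SE), 1.22-fold lower. At its dimmer probe (chr11:70063629-70063688, minus strand) the levels were -2.30 and -1.64 in the mutants and -1.07 and -1.84 in wild type. They overlapped, with a log2 difference of -0.51 ± 0.35 (SE), and wild-type mouse 1 was the highest of the 4 at both probes.

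Platelet markers gave no common direction beside it. Of 6 tested 2 were above 0 and 4 below, with a median of -0.11 and summed levels of 35.1 and 25.4 in the mutants and of 29.9 and 28.0 in wild type. The glycoprotein genes Gp9, Gp5 and Gp6 were above background on both arrays of neither group, and were not tested. Pf4, a platelet chemokine, had a log2 difference of 0.04 ± 0.19 (SE), Ppbp 0.59 ± 0.65 and Gp1ba -0.55 ± 0.23. The summed level is almost wholly that of Pf4, at 5.10 and 4.62 in the mutants and 4.87 and 4.77 in wild type.

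Alox15, the leukocyte-type lipoxygenase of mouse, which eosinophils and resident macrophages express, stood higher through 1 mouse. Its levels were -2.90 and -1.89 in the mutants and -3.01 and -3.22 in wild type, without overlap. Mutant mouse 1 lay close above wild-type mouse 1, and mutant mouse 2 was 2.01-fold brighter than mutant mouse 1. The log2 difference of 0.72 ± 0.36 (SE) became 0.21 without mutant mouse 2 and 1.22 without mutant mouse 1. With normexp correction it was 0.48.

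Eosinophil markers stood higher in the mutants beside Alox15, with 5 of 5 tested above 0, 4 of 5 without overlap (18.9% of all genes were) and a median of 0.70. The median was 0.46 without mutant mouse 2 and 0.95 without mutant mouse 1. In this list 0 of 5 passed the threshold and 3 had an unadjusted p under 0.05 (6.51% of all genes). Their summed level was 0.881 and 1.09 in the mutants and 0.686 and 0.631 in wild type. Siglecf, a lectin of eosinophils, had levels of -2.31 and -1.74 in the mutants and of -2.79 and -3.18 in wild type. Prg2, a granule protein gene, had -4.54 and -4.15 in the mutants and -5.40 and -7.52 in wild type, where 1 of the 2 mice was well above background. The granule protein genes Epx and Prg3 were above background on both arrays of neither group. Mutant mouse 2 was the highest of the 4 for Alox15, Siglecf, Prg2, Ccr3 and Ear6. For Il5ra mutant mouse 1 was the highest (-2.46, with mutant mouse 2 at -2.54), and the groups overlapped. The array of mutant mouse 2 is the one that correlated least with the others. Alternatively activated macrophage markers had a median of 0.09, with 4 of 6 above 0. The part of either cell type in the Alox15 values was not tested.

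Alox5 and its partner Alox5ap open the leukotriene pathway. Alox5, which encodes 5-lipoxygenase (chr6:116360326-116360385, minus strand), had levels of 1.45 and 1.61 in the mutants and of 1.62 and 1.34 in wild type. The groups overlapped, and the log2 difference was 0.05 ± 0.15 (SE). Alox5ap, whose product hands arachidonate to that enzyme (chr5:150099347-150099406, plus strand), had levels of 3.82 and 3.57 in the mutants and of 3.97 and 3.96 in wild type. These did not overlap, with a log2 difference of -0.27 ± 0.13 (SE), 1.20-fold lower, and mutant mouse 2 was the lowest.

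The leukocytes that express these genes gave mixed values. Of 7 macrophage and monocyte markers tested, 2 were above 0 and 5 below, and 4 were lower without overlap (17.4% of all genes were). The median was -0.16, and -0.03 without mutant mouse 2. Their summed level was 72.5 and 63.2 in the mutants and 77.6 and 73.6 in wild type, with mutant mouse 2 lowest as for Alox5ap. Much of that sum is the brightest marker, Csf1r, at 5.32 and 5.13 in the mutants and 5.38 and 5.32 in wild type. Cd68 had a log2 difference of -0.40 ± 0.11 (SE) and the Fc receptor gene Fcgr1 -0.60 ± 0.22. Neutrophil markers had 4 of 8 above 0 and a median of 0.01, which was 0.21 without mutant mouse 2, with Ly6g at -0.09 ± 0.16 (SE), and the furthest, Stfa2l1, at 1.01 ± 0.13 (adjusted p = 0.386 by limma), and Ngp and Ltf were above background on both arrays of neither group. The mast cell list had a median of -0.09 and 3 of 8 above 0, and its furthest, Tpsab1, rested on 1 high wild-type mouse (-1.39 ± 0.96, SE). In limma's fit 0 genes of these 3 lists passed the threshold. At an unadjusted p under 0.05 there were 2 of the macrophage, 1 of the neutrophil and 0 of the mast cell genes (6.51% of all genes). Their part in the Alox5ap values was not tested.

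The genes that supply and follow the lipoxygenases were compared in the same limma fit, with p-values adjusted over all genes. Of 13 phospholipases tested of 16 listed, which free arachidonate from membranes, 0 passed the threshold. An unadjusted p under 0.05 was found for 1 (6.51% of all genes). The list had 4 genes above 0, 9 below and a median of -0.05. Pla2g2d, a secreted enzyme of dendritic cells, stood at -1.33 and -0.93 in the mutants and at -1.71 and -1.59 in wild type, with a log2 difference of 0.52 ± 0.17 (SE, adjusted p = 0.728 by limma). Pla2g2e had -0.64 ± 0.29 (0.818 by limma), with wild-type mouse 1 well above the other 3. Pla2g4e had 0.28 ± 0.18, and Pla2g1b, well above background in 3 of the 4 mice, -0.21 ± 0.38. Pla2g4a, the main cytosolic enzyme, had -0.05 ± 0.11, and Pla2g4b -0.04 ± 0.10. Pla2g4c, Pla2g2a and Pla2g10 were above background on both arrays of neither group.

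Leukotriene enzymes and receptors lay close together in the 2 groups. Of 11 tested of 13 listed, 0 passed the threshold and 0 had an unadjusted p under 0.05 (6.51% of all genes). The smallest adjusted p was 0.852 by limma. The log2 differences ran only from -0.17 for Dpep2 to 0.31 ± 0.17 (SE) for Dpep1, both dipeptidases that trim leukotrienes. Lta4h, which makes leukotriene B4, had 0.12 ± 0.10, and Ltc4s, which makes the cysteinyl leukotrienes, 0.02 ± 0.12. Mgst2, which can also conjugate leukotriene A4 with glutathione, had 0.03 ± 0.11, and the receptor gene Cysltr2 -0.10 ± 0.21.

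Receptors for other lipoxygenase products and enzymes that break them down spread to both sides, and 0 passed the test. Of 12 listed 11 were tested, without Cmklr1, and 4 had an unadjusted p under 0.05 (6.51% of all genes). The groups did not overlap for 9 (36.3% of all genes), 5 higher (18.9%) and 4 lower (17.4%). The median of the 11 was -0.03. Gpx3, a secreted peroxidase that reduces hydroperoxides, stood at 0.27 and 0.43 in the mutants and at 1.62 and 0.83 in wild type, with a log2 difference of -0.87 ± 0.29 (SE, adjusted p = 0.728 by limma). Hpgd, which inactivates prostaglandins and hydroxylated fatty acids, stood at 0.59 and 1.14 in the mutants and at 0.07 and 0.35 in wild type, with 0.66 ± 0.23 (SE, adjusted p = 0.741 by limma). The epoxide hydrolase gene Ephx1 had 0.33 ± 0.12 and the receptor gene Gpr18 -0.50 ± 0.20. Gpr31c, a receptor gene whose human counterpart binds a product of platelet-type lipoxygenase, had -0.33 ± 0.11 (adjusted p = 0.726 by limma). Fpr2, a receptor that binds lipoxin A4, had -0.45 ± 0.32 with mutant mouse 2 lowest.

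The acylceramide genes around Aloxe3 and Alox12b had a median of -0.07, and of 0.10 without mutant mouse 1. Of 17 tested, 7 were above 0, 10 below, 0 past the threshold and 1 at an unadjusted p under 0.05 (6.51% of all genes). Fa2h, a fatty acid hydroxylase also active in sebaceous glands, was the furthest from 0, at 4.64 and 4.95 in the mutants and 5.47 and 5.29 in wild type (log2 difference -0.58 ± 0.15, SE, adjusted p = 0.641 by limma). The ceramide synthase gene Cers3 had 0.22 ± 0.14 and the glucosylceramide synthase gene Ugcg 0.19 ± 0.12, while the acyl hydroxylase gene Cyp4f39 had -0.18 ± 0.10 and the lipase gene Lipn -0.24 ± 0.13. Abca12, the lipid transporter of lamellar granules, had 0.06 ± 0.13. Sebaceous gland markers had 1 of 9 above 0, 6 lower without overlap (17.4% of all genes) and summed levels of 70.1 and 78.4 in the mutants against 105 and 90.6 in wild type. In that list 0 passed the threshold and 5 had an unadjusted p under 0.05 (6.51% of all genes). Its furthest were Elovl3 at -0.74 ± 0.13 (SE) and Awat1 at -0.70 ± 0.11. Their part in the Fa2h values was not tested.

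**Figure D3:**
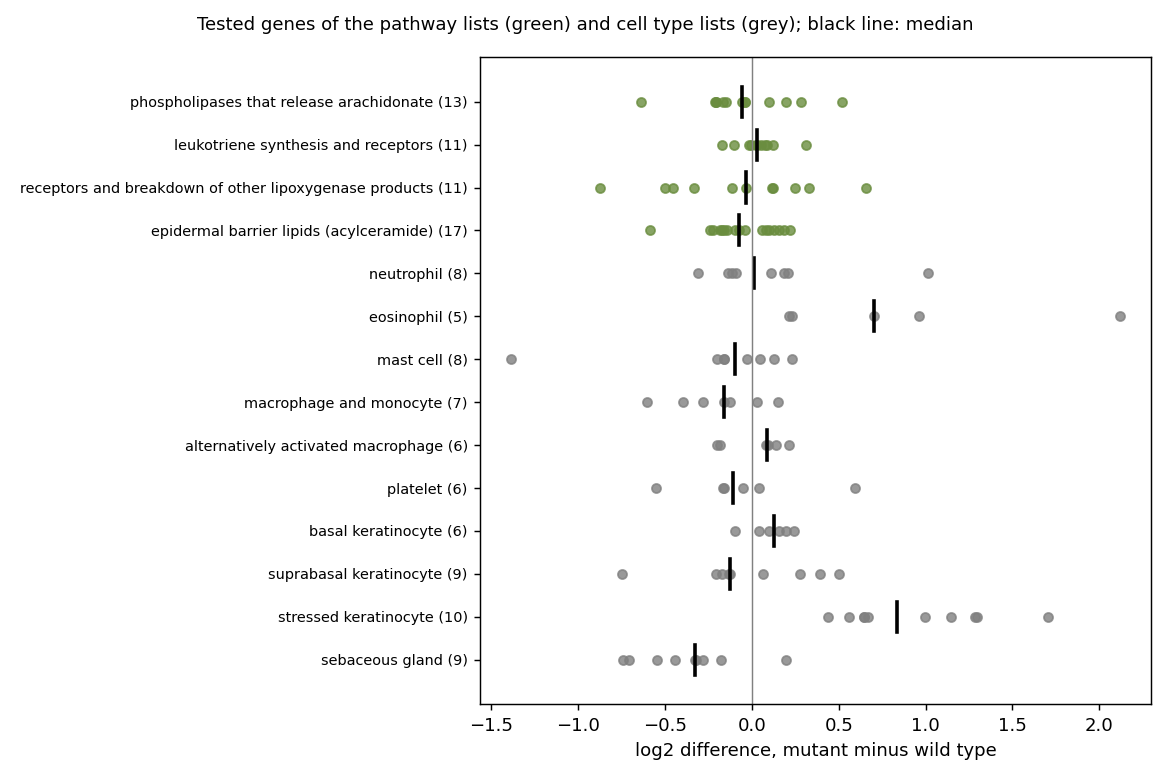
Log2 difference, mutant minus wild type, of each tested gene of 4 pathway lists (green) and 10 cell type lists (grey), with the number tested in brackets and the median as a black line. The leukotriene list is the narrowest of the green ones, from -0.17 to 0.31, and the stressed keratinocyte and eosinophil lists lie wholly above 0.

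On chromosome 11 the other tested genes within 100 kb of the lipoxygenases lay on both sides of 0. Within 100 kb of the Aloxe3, Alox12b and Alox8 probes 8 other genes were tested, of which 3 were higher without overlap, 2 lower and 3 overlapping, with a median log2 difference of 0.07. Over all genes 18.9% were higher and 17.4% lower without overlap. Around Alox12, Alox12e and Alox15 there were 12, of which 2 were higher, 3 lower and 7 overlapping, with a median of -0.03. None of these 20 passed the threshold of limma's fit. Gucy2e, a guanylate cyclase of photoreceptors, lies 39.1 kb beyond Alox8. It had levels of -4.75 and -4.71 in the mutants and of -6.20 and -6.46 in wild type, where it was not well above background. Its lower bound was 1.66-fold higher in the mutants, not a strict one. Like Alox8 it entered the fit through the mutants alone, so no p is read from it. Its other probe, where wild type was not well above background either, had a lower bound of 1.88-fold higher. Outside this window, 2610507I01Rik (chr11:59011304-59011363) and Fam183b (chr11:58606357-58606416) passed the threshold on the same chromosome. The first had a log2 difference of -4.45 ± 0.13 (SE). Fam183b, not well above background in wild type, had a lower bound of 2.59-fold higher, which is not strict either. The part of the shared chromosome in the Alox8 and Gucy2e values was not tested.

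Among the rest of the first cluster the clock gene Per1 had a log2 difference of -0.28 ± 0.12 (SE), Vamp2 -0.15 ± 0.11, Aurkb 0.21 ± 0.15 and the transcript 9130213A22Rik 0.58 ± 0.29. Hes7, Tmem107 and Borcs6 lay between -0.02 and 0.07. In the second cluster 2 transporter genes side by side differed in opposite directions. Slc16a13 stood at -1.23 and -1.20 in the mutants and at -0.28 and -0.31 in wild type (log2 difference -0.92 ± 0.10, SE), and Slc16a11 at 0.30 and 0.37 against -0.08 and -0.08 (0.42 ± 0.10). The other probe of Slc16a13 gave only -0.20 ± 0.13. Rnasek, whose probe is in the damaged corner, had -0.16 ± 0.10, and 0610010K14Rik -0.09 ± 0.11. Clec10a, Bcl6b, Pelp1 and Arrb2 lay between -0.18 and 0.07. The other, dimmer probe of Pelp1 disagreed, at 0.57 ± 0.17 (SE), with both mutants above both wild-type mice. The last 4 are transcripts without a gene name, between -0.11 and 0.18.

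**Figure D4:**
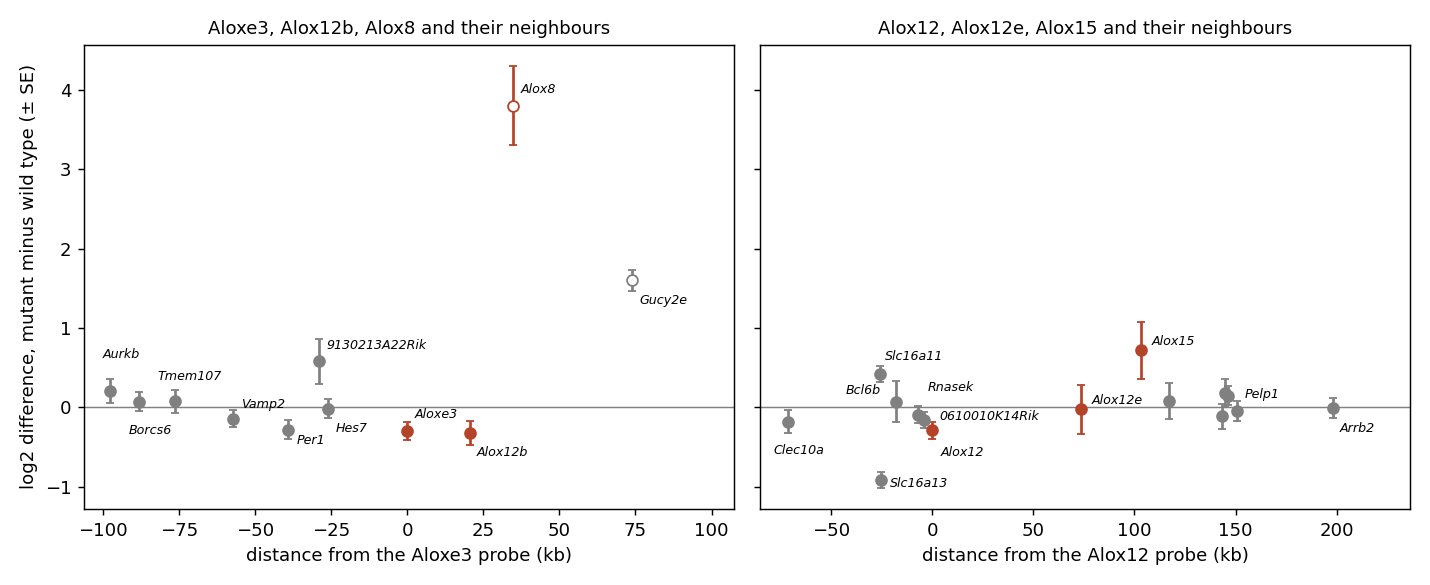
Log2 difference, mutant minus wild type (± SE), of the lipoxygenase genes (red) and of all tested genes within 100 kb (grey), by distance in kb from the Aloxe3 probe (left) and from the Alox12 probe (right). Open points are not well above background in wild type: Alox8 and Gucy2e stand apart upward, and the transcripts without a gene name are unlabelled.

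The patterns of the 4 arrays were also set against those of the 22619 genes well above background on all 4, each centred on its own mean. The measure was the root mean square distance on the log2 scale. Over 4 arrays such likeness is a description only. Alox12, by its brighter probe, and Aloxe3 were each other's nearest gene, at a distance of 0.0056, although their probes lie in different clusters. The dimmer Alox12 probe, where the groups overlapped, was not compared. The next nearest were Ppt1 and H2-DMb1 for Alox12 and Otulinl and Gatd1 for Aloxe3. For Alox5ap they were Ctss, which encodes cathepsin S of antigen-presenting cells, Stim2 and Tstd3. For Alox12e they were Nlrp10 and Tnfrsf13c with an unnamed transcript, and for Alox5 the genes C79130, Kifc2 and Plekhn1. Trim16 was the nearest named gene of Alox12b, at 0.018, behind a transcript without a name. Ifi44, an interferon-induced gene, was the third of Alox15 at 0.074, and its nearest was Gm10318. The lipoxygenase nearest to Alox12b was Alox12, at rank 2226 and a distance of 0.154, and not its partner Aloxe3.

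**Figure D5:**
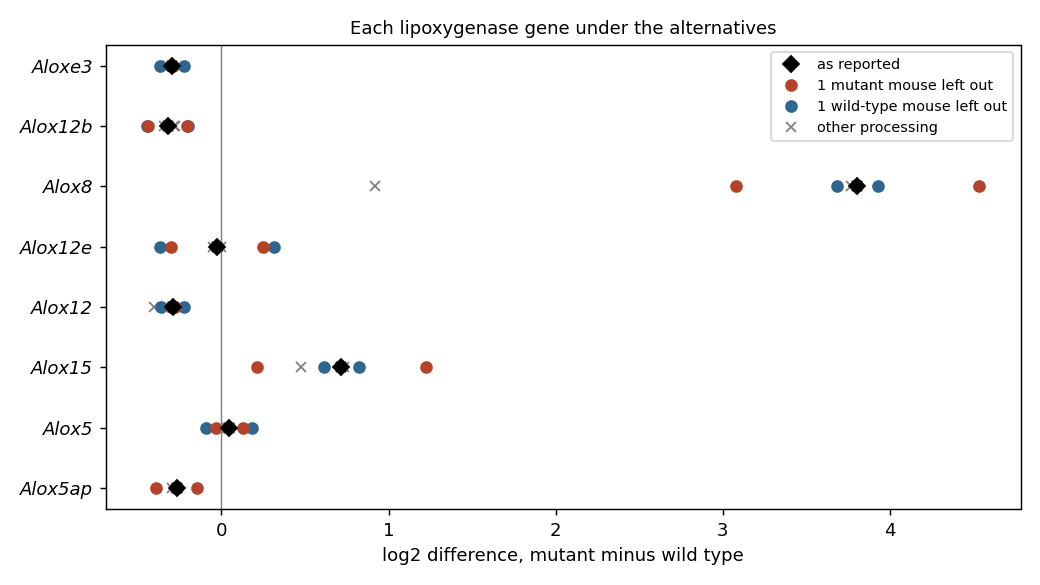
Log2 difference, mutant minus wild type, of each lipoxygenase gene as reported (black), with 1 mutant (red) or 1 wild-type mouse (blue) left out and under other processing (grey). Aloxe3, Alox12b, Alox12 and Alox5ap stay below 0, Alox8 and Alox15 above 0, and Alox12e and Alox5 lie on both sides.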

How the data were processed

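Whole-ear RNA (100 ng, per the labels' protocols) from 2 mutant and 2 wild-type mice was labelled with Cy3 and hybridised to 4 one-colour Agilent arrays. The deposited scanner tables hold, per the file headers, intensity values that Feature Extraction 10.7.3.1 corrected for background and gave a floor where a spot was dim. The authors' series table holds the same intensity as a ratio to the median of the array (largest log2 deviation 1.46e-05) and was an alternative only. Probe positions are in mm9, per the file headers.

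Control spots (3671 of 62976) and outlier flags were left out, which left 59305 spots of 55681 probes. Each intensity was divided by the 75th percentile of its array and taken to log2. Probes well above background on both arrays of a group were tested (33664 of 55681), and a gene was represented by its brightest tested probe, which gave 23624 genes. The fit was limma 3.58.1 (lmFit and eBayes, R 4.3.3), with Benjamini-Hochberg adjustment over all genes at 0.05. Tested on simulated data of 23624 genes, it recovered 98.8% of 8-fold changes over 20 runs. False calls were 8.42%, above the 0.05 set. Each run changed many genes at once and drew its noise from limma's moderated variances. In the real data few genes passed the threshold, so these figures do not carry over to them. Outdated names were updated through RefSeq (15309 accessions matched).

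A lower bound is the mutant mean over that of the dimmest probe well above background on each wild-type array. Spots not well above background can be brighter than that probe, so the bound is not strict. The members and gene lists were chosen with earlier results of these data known. Named were all members, the furthest 2 genes of a pathway list in each direction and its first 3, all tested neighbours within 100 kb, the 3 genes most like a member, and Rela. Of the cell type lists only some of these genes are given, and the 4 neighbours without a gene name are given as a range. Sources name no separate cultures or litters, so p-values speak only for these mice. The p-values and standard errors of limma are moderated. They join the spread between the mice (2 residual degrees of freedom) with a variance taken from all genes (2.5 prior degrees of freedom). The number of arrays limits the precision. Mouse 1 and mouse 2 are names from the titles. Same-numbered mice did not deviate together (correlation -0.20), and the numbers were not taken as pairs.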

Additional observations from a re-analysis of the deposited data

How the results depend on the processing

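Results were recomputed under 14 alternatives, of which the crossed replicate block was chosen after seeing the data. The number of genes past the threshold was 4 as reported. It was 2 with quantile normalization, 1 with no filter on dim probes, 1 with probes above background on all 4 arrays and 14 with the trended and robust eBayes fit. With the replicate number as a block it was 1 (replicate block), and 1 with the numbers crossed. Leaving out 1 mouse gave 0 to 81, with 81 without mutant mouse 1, 1 without mutant mouse 2 and 0 without either wild-type mouse. The block changed no other call. The cause of these shifts was not tested.

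With 4 mice, 5 or 6 of the lipoxygenase genes did not overlap between the groups, against 6 as reported, Alox8 among them. With 1 mouse left out it was 6 to 8, where 64.1% to 72.3% of all genes did not overlap, since 1 group is then a single array. The log2 differences of Aloxe3 (-0.37 to -0.22), Alox12b (-0.44 to -0.20), Alox12 (-0.40 to -0.22) and Alox5ap (-0.39 to -0.15) stayed below 0 in all 14. Alox12 was at -0.40 with the mean of its probes. Alox15 stayed above 0 (0.21 to 1.22), and Alox8 was at 0.92 with normexp, whose offset of 50 brings dim values together, and between 3.08 and 4.53 with 1 mouse left out. It had no value where all 4 arrays had to be above background. Alox12e was above 0 in 2 of the 14 and below in 12 (-0.37 to 0.32), and Alox5 above in 12 and below in 2 (-0.09 to 0.18). The median of the acylceramide list was 0.10 without mutant mouse 1 and between -0.19 and 0.10 over the mice left out, against -0.07 as reported. That of the eosinophil list was 0.46 with normexp and 0.47 with probes above background on all 4 arrays, against 0.70.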
